A study of Mus musculus with 25 samples.

Results

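The 46 genes described here are interferon-stimulated genes, a set given as a list of mouse gene symbols and looked up by symbol in the count table of every library. All 46 were found among the 54752 genes of the tables, and all 46 passed the filter on low counts, a mean of at least 1 CPM (reads of a gene per 1000000 counted reads of the library) over the libraries of a fit. They were sorted by what their products do into sensors of viral RNA and nucleic acid (4 genes), IFIT RNA-binding proteins (4), the OAS family (5), other antiviral effectors and induced genes (13), the ISG15, ubiquitin and ADP-ribose system (8), transcription factors (3), interferon-inducible GTPases (6) and antigen processing (3). Bulk RNA-seq was made from epididymal (eWAT) and inguinal (iWAT) white adipose tissue of male mice, 1 library per mouse and depot. Wild-type (WT) mice received a normal chow diet (ND) or a high-fat diet (HFD) in which 60% of the calories came from fat, and mice lacking Acod1 (Acod1-/-) received the HFD. Acod1 encodes the mitochondrial enzyme that makes itaconate from cis-aconitate, and it was deleted in all cells of the knockout line, C57BL/6N-Acod1 em1(IMPC)J, with WT littermates as controls. All mice were on the C57BL/6 background and started their diet at 5 weeks of age, for 16 weeks, except that the labels of the iWAT Acod1-/- libraries 2 and 3 give 17 and 18 weeks. There were 4 ND-fed WT, 5 HFD-fed WT and 5 HFD-fed Acod1-/- libraries of eWAT, and 3, 5 and 3 of iWAT. No group combined Acod1-/- with the ND, so an effect of the genotype could be measured on the HFD alone.

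Interferons are secreted proteins that bind receptors on the cell surface. Type I interferons signal through IFNAR1 and IFNAR2 to a complex with STAT2 and IRF9 that binds the interferon-stimulated response element (ISRE), while interferon gamma signals through IFNGR1 and IFNGR2 to factors that bind the gamma-activated site (GAS). The induced genes encode sensors of foreign RNA, enzymes and binding proteins that block virus replication, ubiquitin-like modifiers, and the parts of the immunoproteasome and peptide transporter that feed MHC class I. In adipose tissue they are transcribed in adipocytes, progenitors, endothelium and immune cells alike, so that a change in the whole tissue can reflect fewer cells of a type or less RNA per cell, which bulk libraries cannot tell apart.

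The promoters of 4 members are shown because these genes stand for the patterns described below: Ifit3 rose with the HFD in both depots, Oas1a rose in eWAT and was lower in Acod1-/- eWAT, Psmb8 changed in opposite directions with diet in the 2 depots, and Isg15 was called in none of the diet or genotype comparisons. Each run covers 300 bases, from 250 before to 50 after the annotated start of the RefSeq transcript in GRCm38.p6, written along the strand of the gene at chr4:156200769-156201068 (minus strand), chr19:34583279-34583578 (plus), chr5:120907476-120907775 (minus) and chr17:34197945-34198244 (plus). Capitals mark matches, on either strand, to the core of the ISRE, GAAA repeated after any 2 bases, or to the GAS TTCNNNGAA.
Isg15: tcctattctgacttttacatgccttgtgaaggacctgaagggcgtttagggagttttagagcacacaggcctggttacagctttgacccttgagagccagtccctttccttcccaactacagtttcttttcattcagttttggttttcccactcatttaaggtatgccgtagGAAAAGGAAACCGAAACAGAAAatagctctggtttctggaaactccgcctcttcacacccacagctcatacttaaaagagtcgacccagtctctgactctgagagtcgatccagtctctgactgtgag
Ifit3: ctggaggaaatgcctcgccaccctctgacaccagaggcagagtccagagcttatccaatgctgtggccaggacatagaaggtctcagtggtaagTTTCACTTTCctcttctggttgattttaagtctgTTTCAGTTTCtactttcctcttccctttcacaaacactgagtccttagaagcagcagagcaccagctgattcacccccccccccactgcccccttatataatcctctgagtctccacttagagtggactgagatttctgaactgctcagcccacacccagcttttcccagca
Oas1a: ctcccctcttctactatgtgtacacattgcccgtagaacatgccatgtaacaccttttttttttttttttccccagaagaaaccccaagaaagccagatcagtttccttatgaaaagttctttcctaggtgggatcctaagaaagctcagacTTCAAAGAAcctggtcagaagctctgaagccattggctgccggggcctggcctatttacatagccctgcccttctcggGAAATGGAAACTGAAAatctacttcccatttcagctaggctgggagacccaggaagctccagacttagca
Psmb8: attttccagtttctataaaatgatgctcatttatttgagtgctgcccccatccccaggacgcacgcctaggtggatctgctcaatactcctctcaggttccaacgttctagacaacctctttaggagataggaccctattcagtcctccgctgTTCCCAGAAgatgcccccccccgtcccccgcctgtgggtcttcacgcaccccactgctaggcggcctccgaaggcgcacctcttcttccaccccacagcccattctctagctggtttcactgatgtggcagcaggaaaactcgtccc
The Isg15 promoter held 3 overlapping ISRE cores starting between 78 and 66 bases before the gene start. Ifit3 held 2 ISRE cores on the opposite strand, and Oas1a held 2 overlapping ISRE cores and 1 GAS. The Psmb8 window held no ISRE core and 1 GAS. It began inside the span of the counted Psmb8 gene given below, so bases before the start of that span were not searched. Of the 46 members, 34 had a promoter in the RefSeq table, and 17 of these (50%) held an ISRE core, against 3.99% of the 27025 genes with a promoter. A GAS was found in 8 of the 34 (23.5%), against 9.55% of all genes. These are matches of letters and do not show binding.

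The libraries held 31.41 M to 52.34 M counted reads (M, 1000000 reads; median 42.09 M), so the least counted member still had 15 reads in its lowest library. Adipocyte marker genes were abundant in every library, with a summed level of 21342 to 55718 CPM over 10 genes and none at 0. Other cell types differed between groups. Over 12 macrophage genes the summed level was 596 to 995 CPM in ND-fed WT eWAT, 1552 to 5147 CPM in HFD-fed WT eWAT and 531 to 1555 CPM in HFD-fed Acod1-/- eWAT. Over 8 B cell genes it was 646 to 963 CPM in the 3 ND-fed WT iWAT libraries and 2.68 to 96.9 CPM in the HFD-fed iWAT libraries of both genotypes, and over 10 T cell genes 374 to 628 CPM against 4.79 to 141 CPM. In eWAT, the ND-fed WT library 2 and the Acod1-/- library 5 carried epididymis transcripts, with summed levels over 7 genes of 7739 and 1055 CPM. The iWAT Acod1-/- library 2 carried skin transcripts (986 CPM over 7 genes). The libraries were split into 2 presumed sequencing series by the number that heads the counts of each library. The labels do not name such a batch. All ND-fed libraries were in the second series with 1 HFD-fed library of each group, so that diet could not be tested within a series. Acod1 itself had 0 to 9 reads per library in every group, too few to check the genotype labels. None of the 12 macrophage or 8 B cell genes was at 0 throughout a group.

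**Figure D1:**
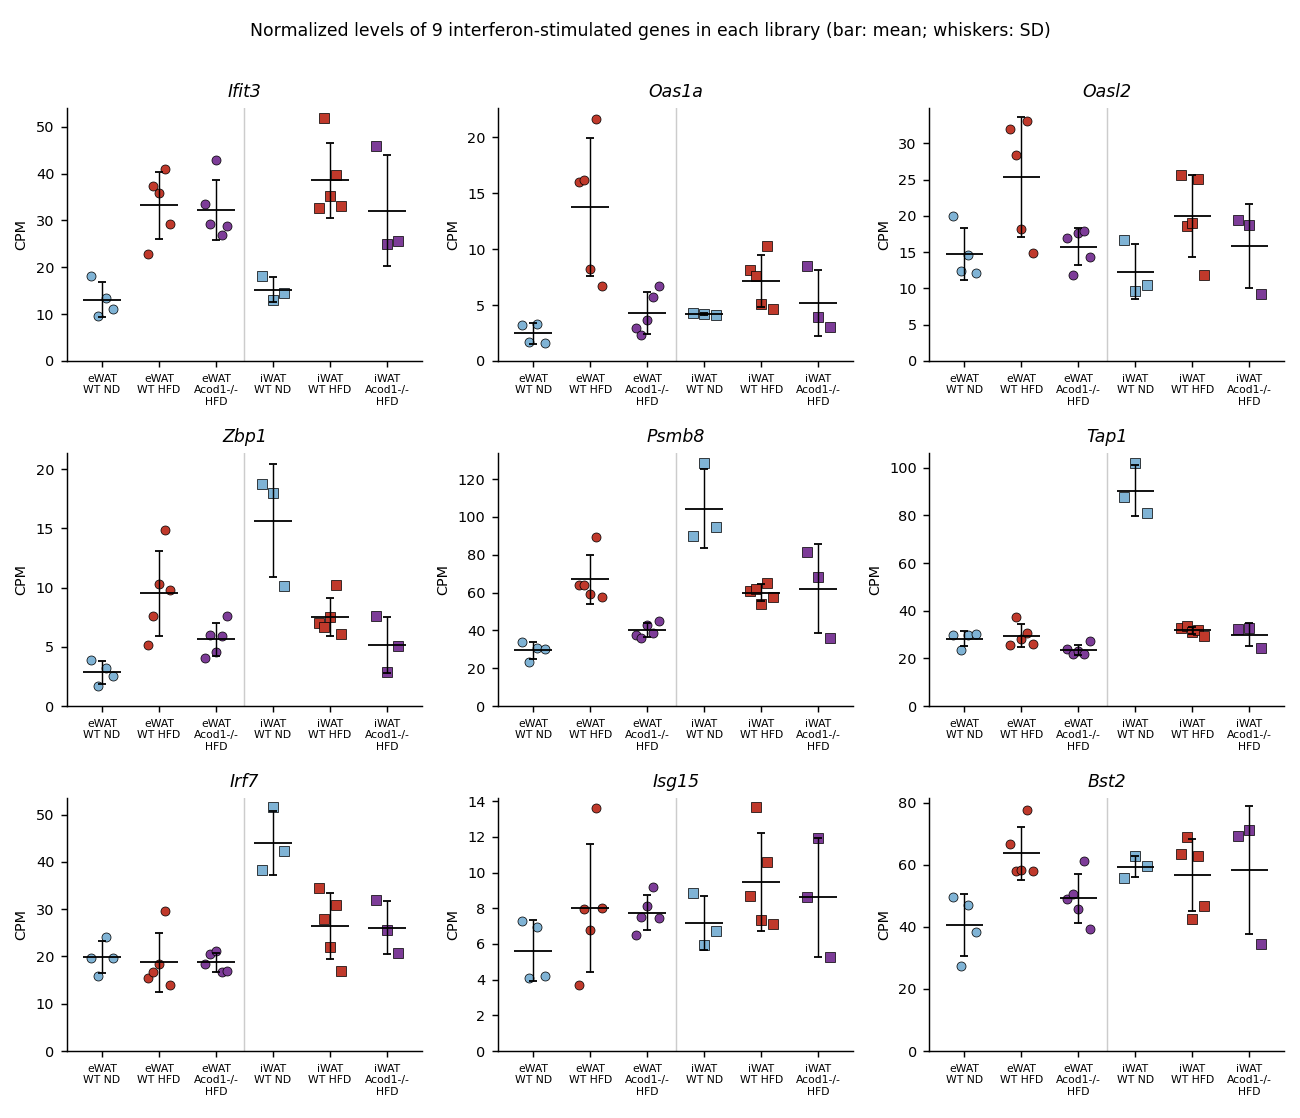
Level of 9 interferon-stimulated genes in CPM (linear axis from 0) in each library, by depot, diet and genotype. Points are libraries, the bar is the group mean and the whiskers are 1 SD. The HFD-fed WT libraries of Oas1a in eWAT sit between 6.71 and 21.6 CPM and the ND-fed ones between 1.64 and 3.33 CPM, while the 3 ND-fed iWAT libraries of Tap1 stand above all other libraries of that gene.

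The members covered a wide range of levels. Per kilobase of transcript and averaged over all 25 libraries, Ifi27, which encodes a small mitochondrial and nuclear membrane protein, was highest at 335 CPM per kb. It was followed by Ly6e, a GPI-anchored surface protein, at 85.8 CPM per kb and by Bst2 (tetherin), which holds budding virions at the cell surface, at 60.5 CPM per kb. The median member stood at 5.13 CPM per kb, and the OAS family member Oas3 was lowest at 0.245 CPM per kb. The ligands were close to absent: of 21 interferon genes in the tables, 14 had no read in any library. Apart from Ifng no ligand had more than 3 reads in a library. Counts up to 3 reads were treated here as not told apart from 0, a floor that was set and not measured. Ifng, which encodes interferon gamma, was counted in 13 libraries with at most 25 reads. Its highest counts were 4, 22 and 1 reads in ND-fed WT, HFD-fed WT and Acod1-/- eWAT, and 25, 11 and 18 reads in the matching iWAT groups. None of the 21 ligands passed the filter, so they were not tested.

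In eWAT, the comparison of HFD-fed with ND-fed WT mice asked how the genes responded to diet. Of the 46 members, 19 (41.3%) were called higher on the HFD and 1 (2.2%) lower at an adjusted p under 0.1 (edgeR quasi-likelihood test, Benjamini-Hochberg adjustment over all 14936 genes tested), where 24.8% of all genes were higher and 26.9% lower. The median log2 fold change was 0.31 over the members and -0.038 over all genes. The libraries of the 2 groups did not overlap for 12 members, all higher on the HFD, and such a separation was seen upward in 17.2% and downward in 18.0% of all genes. By role, the OAS family (4 of 5 higher, median log2 fold change 1.53), the IFIT genes (3 of 4, median 1.19) and antigen processing (2 of 3, median 0.78) stood highest, while none of the 3 transcription factors and none of the 6 GTPases was called. DESeq2 called 21 members higher, the same 19 with the GTPase genes Gbp3 and Gbp7. The macrophage genes moved with these members (11 of 12 higher, 1 lower). So did 7 of 8 lipid-associated macrophage, 7 of 8 fibroblast and progenitor and 5 of 9 T cell genes (0 lower in each). Of the endothelial genes 0 of 8 were higher and 6 lower, and of the adipocyte genes 1 of 10 was higher and 4 lower. The part of these cell types in the result was not tested.

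The OAS family makes or relates to the enzymes that synthesise 2′-5′-linked oligoadenylates and so activate RNase L. Oas1a (ENSMUSG00000052776, chr5:120896256-120907521, GRCm38) was at 3.18, 1.70, 3.33 and 1.64 CPM in the ND-fed WT libraries and at 15.96, 16.2, 8.22, 21.6 and 6.71 CPM in the HFD-fed ones. Every HFD-fed library lay above every ND-fed library, a 5.58-fold difference (log2 fold change 2.48, SE 0.43, adjusted p = 0.000986). Oas1a shares 57.57% of its 50-base windows with Oas1g, so its count is uncertain to the extent that reads could be split between them. Oasl2, an OAS-like member of the family with ubiquitin-like domains, was at 19.96, 12.4, 14.6 and 12.1 CPM on the ND and at 32.02, 28.4, 18.2, 33.1 and 14.9 CPM on the HFD. It rose 1.72-fold (log2 fold change 0.78, SE 0.24, adjusted p = 0.0201), although the HFD-fed libraries 3 and 5 were below the highest ND-fed library. Oasl1 and Oas3 rose by 2.13 and 1.53 on the log2 scale (adjusted p = 0.00195 and 0.0239). Oas2 was not called (log2 fold change -0.48, adjusted p = 0.219).

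The IFIT family includes proteins that bind viral RNA that lacks the host's cap methylation. Ifit3 (ENSMUSG00000074896, chr19:34583531-34588731) was at 18.1, 9.57, 13.5 and 11.1 CPM on the ND and at 22.9, 37.3, 35.7, 40.96 and 29.2 CPM on the HFD. The groups did not overlap, and Ifit3 was 2.54-fold higher on the HFD (log2 fold change 1.35, SE 0.22, adjusted p = 0.000694). Its neighbour Ifit3b was at 5.73, 3.12, 3.64 and 3.77 CPM and 5.38, 9.24, 11.5, 13.3 and 9.01 CPM, with HFD-fed library 1 within the ND-fed range (log2 fold change 1.26, SE 0.34, adjusted p = 0.00998). Ifit3 shares 51.24% and Ifit3b 44.54% of their 50-base windows with each other, so the 2 genes are not independent measurements. Ifit1 was at 7.50, 4.81, 7.43 and 6.89 CPM on the ND and at 9.92, 11.2, 18.8, 22.4 and 10.4 CPM on the HFD, without overlap (log2 fold change 1.13, SE 0.26, adjusted p = 0.00393). Ifit2 was not called (log2 fold change 0.23, adjusted p = 0.367).

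Among the sensors, Zbp1, which recognises Z-form nucleic acid and can start necroptosis, was at 3.91, 1.66, 3.18 and 2.56 CPM on the ND and at 5.14, 7.55, 10.3, 14.8 and 9.78 CPM on the HFD. All HFD-fed libraries were above all ND-fed ones, and the gene rose 3.36-fold (log2 fold change 1.75, SE 0.33, adjusted p = 0.0015). Dhx58, which encodes the RIG-I-like receptor LGP2, rose by 0.62 on the log2 scale (adjusted p = 0.0294). The RNA sensors Ifih1 (MDA5) and Ddx58 (RIG-I) were not called, with log2 fold changes of 0.15 and 0.05.

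Antigen processing was split. Psmb8 (ENSMUSG00000024338, chr17:34197721-34201454), a catalytic subunit of the immunoproteasome, was at 33.7, 23.4, 30.5 and 29.95 CPM on the ND and at 63.9, 64.2, 59.3, 89.6 and 57.8 CPM on the HFD. The groups lay far apart, with a 2.28-fold rise (log2 fold change 1.19, SE 0.15, adjusted p = 0.000225), the smallest adjusted p of the 46 members in this comparison. Psmb9, a second such subunit, was at 17.5, 11.4, 16.8 and 16.9 CPM and 26.5, 20.7, 26.2, 30.7 and 29.6 CPM, again without overlap (log2 fold change 0.78, SE 0.16, adjusted p = 0.00217). Tap1, a subunit of the peptide transporter encoded beside Psmb9, was at 29.96, 23.3, 29.9 and 30.1 CPM on the ND and 25.5, 37.2, 28.2, 30.5 and 26.1 CPM on the HFD, with overlapping groups (log2 fold change 0.06, SE 0.13, adjusted p = 0.724). Psmb8 overlaps Gm20496 on the opposite strand by 498 exonic bases (14.7% of its own). Psmb9 and Tap1 overlap by 212 exonic bases on opposite strands, and whether the counting used strand is not given in the sources used here.

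The other effectors were mixed. Bst2 was at 49.6, 27.4, 47.2 and 38.3 CPM on the ND and at 66.6, 58.2, 58.5, 77.6 and 57.97 CPM on the HFD, without overlap (log2 fold change 0.65, SE 0.17, adjusted p = 0.00949). Mx1, an antiviral dynamin-like GTPase whose allele in most inbred laboratory strains is defective, was at 2.33, 1.33, 1.57 and 0.722 CPM and 3.74, 6.57, 3.41, 6.53 and 1.73 CPM (log2 fold change 1.56, SE 0.42, adjusted p = 0.0103), and only HFD-fed library 5 fell within the ND-fed range. Rtp4, a receptor transporter protein that inhibits flaviviruses, was at 10.5, 6.36, 9.57 and 8.0 CPM and 14.8, 17.9, 14.6, 22.2 and 8.31 CPM, with HFD-fed library 5 again among the ND-fed values (log2 fold change 0.85, SE 0.25, adjusted p = 0.0164). Samd9l and Ifi35 were also higher (log2 fold changes 0.77 and 0.51). The most abundant members did not pass the test. Ly6e was at 311, 434, 243 and 283 CPM and 164, 258, 286, 304 and 263 CPM (log2 fold change -0.32, SE 0.21, adjusted p = 0.233). Ifi27 was at 385, 292, 435 and 504 CPM and 325, 431, 498, 536 and 506 CPM (log2 fold change 0.19, SE 0.21, adjusted p = 0.488). Isg20, an exonuclease that degrades single-stranded RNA, was the 1 member called lower, at 13.98, 72.1, 16.95 and 13.99 CPM on the ND and 5.78, 10.1, 12.3, 12.6 and 16.4 CPM on the HFD (log2 fold change -1.35, SE 0.44, adjusted p = 0.0258). Its high ND-fed value came from library 2, which carried the epididymis transcripts, and without that library the log2 fold change was -0.38 with an adjusted p of 0.243.

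Isg15, a ubiquitin-like modifier and one of the most used markers of an interferon response, was at 7.27, 4.10, 6.92 and 4.20 CPM on the ND and at 3.67, 7.97, 6.80, 13.6 and 8.03 CPM on the HFD. The groups overlapped and the difference did not pass the test (log2 fold change 0.51, SE 0.31, adjusted p = 0.193). In the same functional group Parp9, a macrodomain protein that forms a ubiquitin ligase with DTX3L, was at 59.5, 39.1, 52.6 and 65.4 CPM on the ND and 58.3, 77.7, 84.1, 72.2 and 77.9 CPM on the HFD (log2 fold change 0.45, SE 0.15, adjusted p = 0.0301). Parp9 and Dtx3l overlap by 458 exonic bases on opposite strands. Parp14 and the ubiquitin ligase gene Trim30a were higher by 0.49 and 0.53 on the log2 scale (adjusted p = 0.063 and 0.082). The Parp14 call was lost without ND-fed library 2 or HFD-fed library 2 (adjusted p = 0.163 and 0.132), and that of Trim30a without ND-fed library 2 or 4 or HFD-fed library 1, 2 or 4 (adjusted p 0.128 to 0.191).

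None of the transcription factors that drive the response passed the test in eWAT. Irf7, the factor that amplifies type I interferon production, was at 19.7, 15.97, 24.1 and 19.6 CPM on the ND and at 15.4, 16.8, 18.4, 29.5 and 13.9 CPM on the HFD (log2 fold change -0.078, SE 0.20, adjusted p = 0.771). Irf9, the DNA-binding part of the complex that binds the ISRE, was at 28.4, 36.1, 21.3 and 23.8 CPM and 29.7, 27.05, 19.5, 32.2 and 18.4 CPM (log2 fold change -0.11, SE 0.18, adjusted p = 0.65). Stat2 was at 41.2, 31.1, 35.04 and 29.2 CPM and 32.7, 36.98, 30.1, 32.9 and 25.5 CPM (log2 fold change -0.11, SE 0.15, adjusted p = 0.577). In all 3 the groups overlapped. The GTPases, which coat and disrupt the vacuoles of intracellular pathogens, did not pass the edgeR test either, while Gbp3 and Gbp7 were called higher by DESeq2. Gbp2 was at 69.7, 42.7, 60.9 and 71.2 CPM and 38.4, 71.1, 76.8, 85.4 and 73.8 CPM (log2 fold change 0.18, SE 0.22, adjusted p = 0.522), and Iigp1 at 35.4, 14.5, 20.1 and 30.3 CPM and 17.01, 26.5, 26.9, 38.7 and 19.9 CPM (log2 fold change 0.042, SE 0.27, adjusted p = 0.91).

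Adding the sequencing series to the model left 10 of the 19 members called higher (Bst2, Dhx58, Ifit1, Mx1, Oas3, Oasl2, Parp14, Rtp4 and Trim30a were not) and 2 members, Irgm1 and Oas2, called lower in place of Isg20. Without ND-fed library 2 and Acod1-/- library 5 together, 17 members were called higher. The shares of all genes called in these fits are not reported here, so a change over all genes cannot be set beside these counts.

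**Figure D2:**
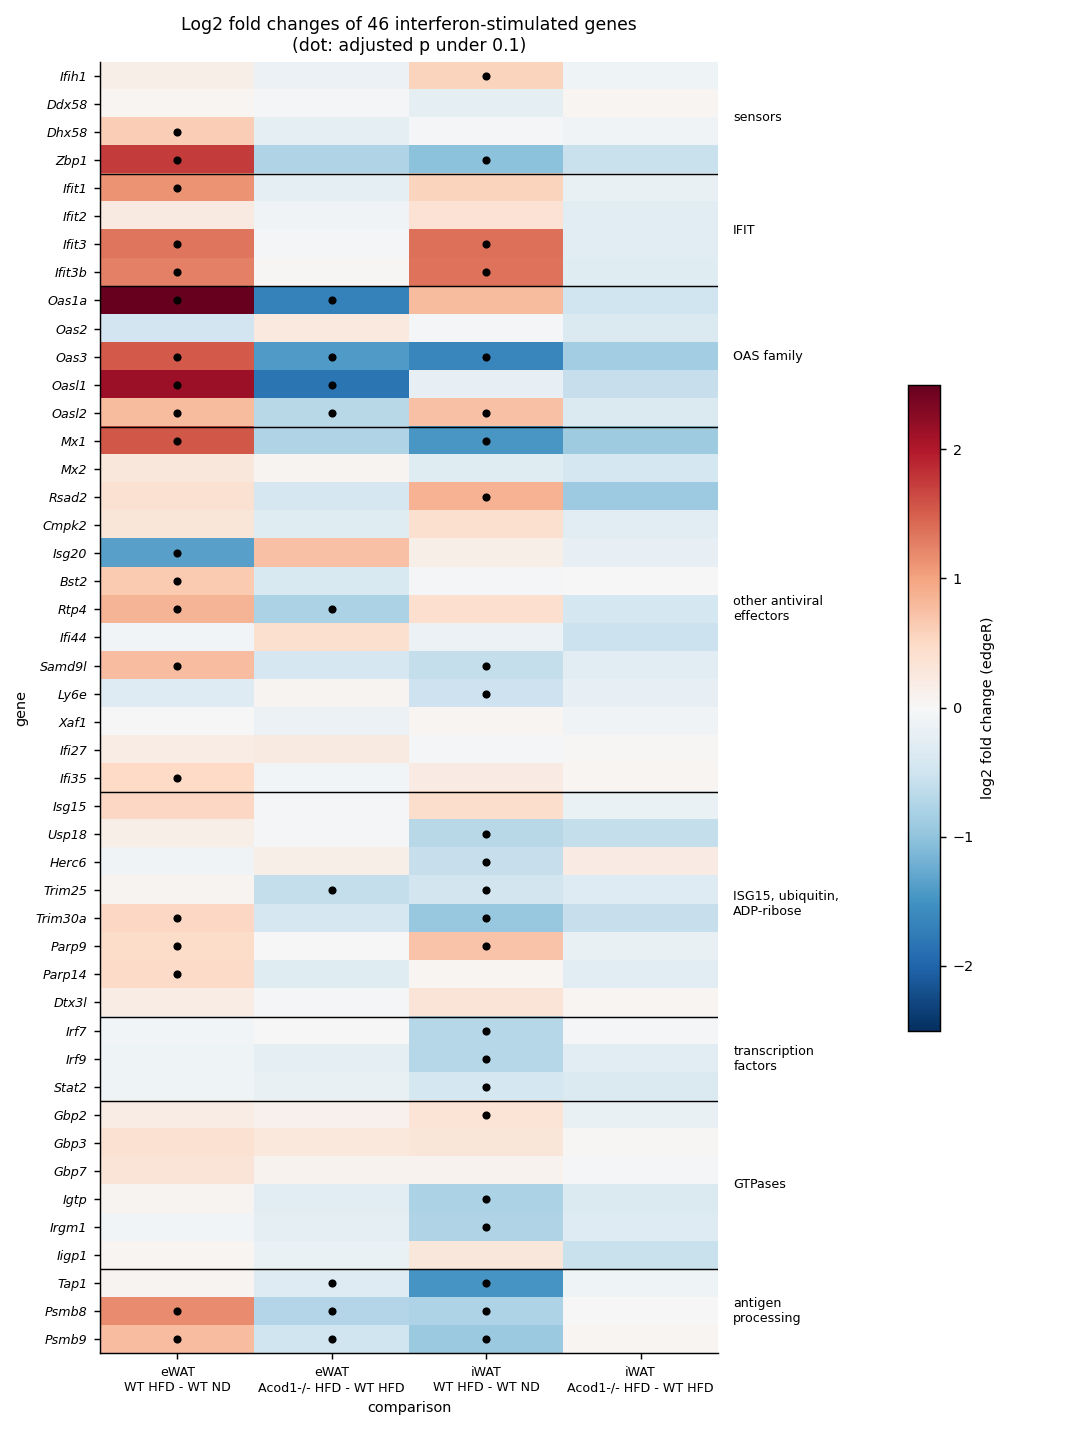
Log2 fold change of the 46 interferon-stimulated genes (rows, grouped by role) in the diet and genotype comparisons of both depots (columns); the colour gives the log2 fold change and a dot marks an adjusted p under 0.1. The eWAT diet column holds 19 dots of increase and 1 of decrease, the eWAT genotype column 9 of decrease, the iWAT diet column 7 and 17, and the iWAT genotype column none.

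The comparison of Acod1-/- with WT eWAT on the HFD asked whether loss of Acod1 altered the same genes. It uses the same HFD-fed WT libraries as the diet comparison, so a WT library that is high raises the difference in both. No member was called higher and 9 (19.6%) were called lower, where 9.13% of all genes were higher and 10.8% lower. The median log2 fold change was -0.18 over the members and 0.044 over all genes. An unadjusted p under 0.05 was found for 12 of the 46 members, all lower. Of the 14936 genes tested it was found for 4304, 2155 higher and 2149 lower. The 9 genes were Oas1a, Oasl1, Oas3 and Oasl2 of the OAS family, all 3 antigen processing genes, Rtp4 and Trim25, while edgeR called no sensor, IFIT gene, transcription factor or GTPase. DESeq2 called 11 lower, these 9 with Samd9l and the sensor gene Zbp1 (adjusted p = 0.0682 for Zbp1). Zbp1 was also called among genes of at least 1 CPM in every library (adjusted p = 0.0839). The libraries of the genotypes did not overlap for 2 members, Psmb8 and Oasl1, and such a downward separation was seen in 4.34% of all genes. The macrophage genes again moved with these members (0 of 12 higher, 10 lower). So did 7 of 8 lipid-associated macrophage, 5 of 8 fibroblast and progenitor and 4 of 9 T cell genes (0 higher in each). Of the adipocyte genes 4 of 10 were higher and 0 lower, and 0 of 8 endothelial genes were called. The part of these cell types in the result was not tested. Within the first sequencing series alone (4 libraries of each genotype), 11 members were called lower, 8 of the 9 above without Psmb9 and in addition Mx1, Samd9l and Zbp1, and 1, Isg20, was called higher. The share of all genes called in that series is not reported here.

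Oas1a was at 2.92, 2.30, 3.66, 5.74 and 6.74 CPM in the HFD-fed Acod1-/- libraries, against the HFD-fed WT values of 6.71 to 21.6 CPM given above. Acod1-/- library 5, at 6.74 CPM, reached the lowest WT library and the other 4 Acod1-/- libraries lay below all WT libraries. The gene was 3.21-fold lower in Acod1-/- mice (log2 fold change -1.68, SE 0.39, adjusted p = 0.0168). Oasl1, which binds RNA and limits the translation of Irf7, was at 1.85, 1.35, 1.97 and 1.03 CPM in ND-fed WT, 7.77, 7.30, 4.40, 11.5 and 2.94 CPM in HFD-fed WT and 2.57, 1.19, 1.15, 2.01 and 2.68 CPM in HFD-fed Acod1-/- mice. All Acod1-/- libraries were below all HFD-fed WT libraries (log2 fold change -1.82, SE 0.39, adjusted p = 0.0138). Oasl2 was at 17.02, 11.9, 17.6, 17.95 and 14.4 CPM in Acod1-/- mice, and only WT library 5 lay within their range (log2 fold change -0.69, SE 0.23, adjusted p = 0.0642). The Oasl2 call was lost without WT library 1, 2 or 4 or Acod1-/- library 2 (adjusted p 0.115 to 0.153). Oas3 was lower with a log2 fold change of -1.42 (adjusted p = 0.0585), a call lost without WT library 4 or Acod1-/- library 1, 2 or 3 (adjusted p 0.109 to 0.175), and Oas2 was not called (0.24, adjusted p = 0.629).

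Psmb8 was at 37.6, 35.99, 42.9, 38.88 and 45.2 CPM in Acod1-/- mice, above the ND-fed WT range of 23.4 to 33.7 CPM and below the HFD-fed WT range of 57.8 to 89.6 CPM. It was 1.67-fold lower than in HFD-fed WT mice (log2 fold change -0.74, SE 0.13, adjusted p = 0.011). Psmb9 was at 19.2, 16.5, 22.3, 20.1 and 16.6 CPM in Acod1-/- mice (log2 fold change -0.50, SE 0.15, adjusted p = 0.0419), with only Acod1-/- library 3 above the lowest WT library. Tap1, not called with diet in eWAT, was at 23.8, 22.05, 23.1, 21.8 and 27.1 CPM in Acod1-/- mice (log2 fold change -0.33, SE 0.12, adjusted p = 0.0924), with Acod1-/- library 5 within the WT range. Rtp4 was at 9.78, 6.03, 9.70, 9.84 and 9.33 CPM (log2 fold change -0.80, SE 0.24, adjusted p = 0.0444), and WT library 5 lay among the Acod1-/- values. Trim25, the ubiquitin ligase that activates RIG-I, was at 92.9, 69.7, 48.8, 56.9 and 46.5 CPM in HFD-fed WT and 49.4, 25.3, 50.7, 41.6 and 41.2 CPM in Acod1-/- mice (log2 fold change -0.60, SE 0.22, adjusted p = 0.0871). The groups overlapped, and the call was lost without ND-fed library 3 or 4, WT library 1, 2 or 4 or Acod1-/- library 2 or 4 (adjusted p 0.104 to 0.202).

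Several of these calls changed when 1 library was left out. Without WT library 4, which had the highest value of its group in 25 of the 46 members, 3 members were called lower, and Psmb9 (adjusted p = 0.1) and Rtp4 (adjusted p = 0.115) were no longer among them. Without Acod1-/- library 2, 5 members were called lower. The shares of all genes called in these fits are not reported here. The Tap1 call was lost without ND-fed library 3 or 4, WT library 2, 3 or 4, or Acod1-/- library 1, 2, 3 or 4 (adjusted p 0.109 to 0.181), and those of Psmb8, Oas1a and Oasl1 were kept in each of the 14 fits.

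The 3 IFIT genes that rose with diet in eWAT were not called by genotype. Ifit3 was at 33.4, 29.2, 42.8, 26.9 and 28.7 CPM in Acod1-/- mice, a range that covers most of the HFD-fed WT values (log2 fold change -0.046, SE 0.20, adjusted p = 0.904). Ifit3b was at 13.4, 6.41, 14.2, 5.20 and 9.92 CPM (log2 fold change 0.02, SE 0.31, adjusted p = 0.976) and Ifit1 at 12.2, 13.8, 11.3, 14.5 and 10.2 CPM (log2 fold change -0.23, SE 0.23, adjusted p = 0.547). For Ifit3 all Acod1-/- libraries were above all ND-fed WT libraries. Zbp1 was at 4.04, 6.03, 4.59, 5.92 and 7.63 CPM in Acod1-/- mice and did not pass the test (log2 fold change -0.75, SE 0.30, adjusted p = 0.11). Mx1 at 1.65, 2.57, 3.22, 2.84 and 2.81 CPM (log2 fold change -0.75, SE 0.38, adjusted p = 0.215) and Bst2 at 49.03, 50.5, 45.7, 61.3 and 39.4 CPM (log2 fold change -0.38, SE 0.16, adjusted p = 0.141) did not pass it either. A difference between the OAS and IFIT genes in their response to genotype was not tested.

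Isg15 was at 6.51, 7.49, 8.14, 9.16 and 7.44 CPM in Acod1-/- eWAT (log2 fold change -0.052, SE 0.29, adjusted p = 0.93), within the range of the WT libraries. Irf7 at 18.3, 20.5, 21.1, 16.8 and 16.9 CPM (log2 fold change -0.0071, SE 0.19, adjusted p = 0.986), Irf9 at 19.96, 19.5, 22.4, 23.1 and 22.7 CPM (log2 fold change -0.24, SE 0.17, adjusted p = 0.395) and Stat2 at 25.4, 26.8, 35.7, 29.2 and 22.4 CPM (log2 fold change -0.18, SE 0.14, adjusted p = 0.418) overlapped the WT libraries. The same was true of Ly6e at 317, 198, 295, 223 and 312 CPM (log2 fold change 0.075, SE 0.20, adjusted p = 0.834), of Gbp2 at 74.3, 61.7, 69.9, 67.3 and 96.8 CPM (log2 fold change 0.10, SE 0.20, adjusted p = 0.785) and of Iigp1 at 18.1, 24.9, 28.6, 19.9 and 22.99 CPM (log2 fold change -0.17, SE 0.25, adjusted p = 0.689). Ifi27 was at 479.5, 801, 479, 451 and 472 CPM, with Acod1-/- library 2 above every other eWAT library (log2 fold change 0.22, SE 0.20, adjusted p = 0.484). Isg20 was at 19.5, 15.1, 18.3, 19.5 and 22.6 CPM (log2 fold change 0.73, SE 0.42, adjusted p = 0.27) and was called higher in Acod1-/- mice once ND-fed library 2 was left out of the fit.

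In iWAT, the HFD moved the members in both directions. Of the 46, 7 (15.2%) were called higher and 17 (37%) lower, where 25.9% of the 14801 genes tested were higher and 24.2% lower. The median log2 fold change was -0.037 over the members and 0.0043 over all genes. All 3 ND-fed libraries were in the second presumed sequencing series and 4 of the 5 HFD-fed WT libraries in the first. With the series as a term in the model the member median was more negative, as given in the section on processing. The groups did not overlap for 5 members that were higher and 12 that were lower, against 23% and 24.1% of all genes. All 3 transcription factors, all 3 antigen processing genes and 4 of the 8 genes of the ISG15 group were called lower, and 2 of the 4 IFIT genes were called higher. The B cell genes (0 of 8 higher, 8 lower) and the T cell genes (0 of 10 higher, 10 lower) moved with diet in this depot, being high in all 3 ND-fed libraries, and so did a summed level over 7 plasmacytoid dendritic cell genes, at 130 to 170 CPM in the ND-fed and 1.85 to 17.5 CPM in the HFD-fed WT libraries. Diet and this lymphoid RNA cannot be told apart in these libraries. Other markers were higher on the HFD, like the 7 members called higher. They were 8 of 12 macrophage genes (1 lower), 6 of 8 genes of lipid-associated macrophages, all 8 endothelial genes and 7 of 8 fibroblast and progenitor genes. Their part in those calls was not tested.

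Tap1 (ENSMUSG00000037321, chr17:34187553-34197225) was at 87.97, 102 and 81.1 CPM on the ND and at 32.6, 33.6, 31.1, 32.05 and 29.5 CPM on the HFD. The HFD-fed libraries lay close together and far below the ND-fed ones, a 2.78-fold decrease (log2 fold change -1.48, SE 0.11, adjusted p = 4.91e-05), the smallest adjusted p of the 46 members. Psmb9 was at 44.9, 62.8 and 44.7 CPM on the ND and 28.8, 25.5, 25.7, 25.6 and 24.6 CPM on the HFD (log2 fold change -0.93, SE 0.20, adjusted p = 0.00361), and Psmb8 at 89.7, 129 and 94.97 CPM and 61.1, 61.9, 53.8, 65.3 and 57.7 CPM (log2 fold change -0.77, SE 0.21, adjusted p = 0.0132). In both the groups did not overlap.

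The transcription factors fell with the HFD in this depot. Irf7 was at 38.3, 51.5 and 42.3 CPM on the ND and 34.4, 27.98, 21.9, 30.8 and 17 CPM on the HFD (log2 fold change -0.71, SE 0.21, adjusted p = 0.021). Irf9 was at 38.3, 43.3 and 31.3 CPM and 25.4, 22.5, 21.7, 25.4 and 17.8 CPM (log2 fold change -0.71, SE 0.17, adjusted p = 0.00739). For both genes all HFD-fed libraries were below all ND-fed ones. Stat2 was at 49.2, 48.97 and 34.6 CPM and 37.5, 31.6, 36.3, 32.5 and 22.1 CPM (log2 fold change -0.44, SE 0.17, adjusted p = 0.0612), with overlap, and its call was lost without ND-fed library 1 or 2 (adjusted p = 0.18 and 0.195). Trim30a, whose product is a ubiquitin ligase, was at 64.04, 72.9 and 43.6 CPM and 38.8, 24.9, 29.9, 33.97 and 24.3 CPM (log2 fold change -0.95, SE 0.20, adjusted p = 0.00329), again without overlap.

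Zbp1 was at 18.8, 18.01 and 10.2 CPM on the ND and 6.97, 6.69, 7.55, 10.2 and 6.08 CPM on the HFD (log2 fold change -1.02, SE 0.30, adjusted p = 0.0202), with HFD-fed library 4 at the level of the lowest ND-fed library. Mx1 was at 10.9, 12.1 and 5.44 CPM and 4.09, 4.91, 2.15, 4.11 and 1.67 CPM, without overlap and 2.74-fold lower on the HFD (log2 fold change -1.46, SE 0.45, adjusted p = 0.0233). Ly6e was at 458, 594 and 484 CPM and 360.4, 306, 406, 378 and 303 CPM, lower in every HFD-fed library (log2 fold change -0.51, SE 0.15, adjusted p = 0.0163). The pathogen-restricting GTPase genes Igtp and Irgm1 fell, with log2 fold changes of -0.80 and -0.76 (adjusted p = 0.0122 and 0.0135). Gbp2, of the guanylate-binding family, was called higher, at 71.5, 60.6 and 54.9 CPM and 66.1, 83.3, 75.1, 93.7 and 70.2 CPM (log2 fold change 0.35, SE 0.14, adjusted p = 0.0687), but not without ND-fed library 2 or 3 or HFD-fed library 2, 3 or 4 (adjusted p 0.106 to 0.257). Iigp1 was not called, at 45.8, 34.4 and 24.5 CPM and 41.7, 46.2, 33.3, 62.8 and 24.6 CPM (log2 fold change 0.29, SE 0.28, adjusted p = 0.434).

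Ifit3 and Ifit3b rose in this depot too. Ifit3 was at 18.2, 12.9 and 14.5 CPM on the ND and 32.7, 51.8, 35.3, 39.7 and 33.05 CPM on the HFD, 2.59-fold higher and without overlap (log2 fold change 1.37, SE 0.24, adjusted p = 0.00117). Ifit3b was at 6.42, 3.75 and 4.28 CPM and 10.9, 13.9, 14.04, 11.2 and 10.1 CPM, also without overlap (log2 fold change 1.35, SE 0.22, adjusted p = 0.000957). Ifit1 overlapped at 14.7, 8.76 and 8.35 CPM and 13.9, 23.5, 11.7, 17.7 and 9.23 CPM and did not pass the test (log2 fold change 0.55, SE 0.33, adjusted p = 0.205). Parp9 was at 61.9, 53.4 and 51.6 CPM and 79.5, 95.5, 109, 72.2 and 91.3 CPM, above the ND-fed libraries in every HFD-fed one (log2 fold change 0.72, SE 0.17, adjusted p = 0.00635). The RNA sensor Ifih1 was higher by 0.57 on the log2 scale (adjusted p = 0.0131). The members not yet named among the 17 lower ones were Oas3, Usp18, which removes ISG15 from proteins, the ligase gene Herc6, Samd9l and Trim25, with log2 fold changes of -1.62, -0.69, -0.58, -0.60 and -0.45. The call of Usp18 was lost without ND-fed library 2 (adjusted p = 0.135), those of Herc6 and Trim25 without ND-fed library 1 or 2 or HFD-fed library 2 and for Trim25 also 4 or 5 (adjusted p 0.104 to 0.214), and that of Samd9l without ND-fed library 1 or 2 or HFD-fed library 1 or 3 (adjusted p 0.111 to 0.322).

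Oas1a was at 4.28, 4.21 and 4.14 CPM on the ND and 8.10, 7.61, 5.07, 10.3 and 4.63 CPM on the HFD. Every HFD-fed library was above every ND-fed one, but the difference did not pass the test (log2 fold change 0.79, SE 0.36, adjusted p = 0.1). Oasl2 was called higher, at 16.6, 9.66 and 10.5 CPM and 25.6, 18.6, 19.1, 25.1 and 11.8 CPM (log2 fold change 0.74, SE 0.30, adjusted p = 0.0731), and so was Rsad2 (viperin), an enzyme that makes a chain-terminating nucleotide, at 19.8, 10.8 and 16.8 CPM and 41.1, 32.3, 27.03, 31.2 and 10.7 CPM (log2 fold change 0.87, SE 0.37, adjusted p = 0.0803). Both calls were lost without ND-fed library 2 or 3 or HFD-fed library 1, 2, 3 or 4 (adjusted p 0.115 to 0.237 for Oasl2 and 0.119 to 0.263 for Rsad2), and after the sequencing series was added to the model their log2 fold changes were -0.041 and -0.19. In all, 4 members were called higher without ND-fed library 2 or 3 or HFD-fed library 2 or 4. Not called were Isg15 at 8.86, 5.93 and 6.71 CPM and 8.68, 13.7, 7.32, 10.6 and 7.10 CPM (log2 fold change 0.43, SE 0.29, adjusted p = 0.257) and Bst2 at 55.9, 62.8 and 59.7 CPM and 63.4, 69.1, 42.6, 62.8 and 46.6 CPM (log2 fold change -0.035, SE 0.22, adjusted p = 0.911). Ifi27, at 410.4, 502 and 677 CPM and 489, 536, 496, 521 and 496 CPM, did not pass the test either (log2 fold change -0.034, SE 0.17, adjusted p = 0.887).

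**Figure D3:**
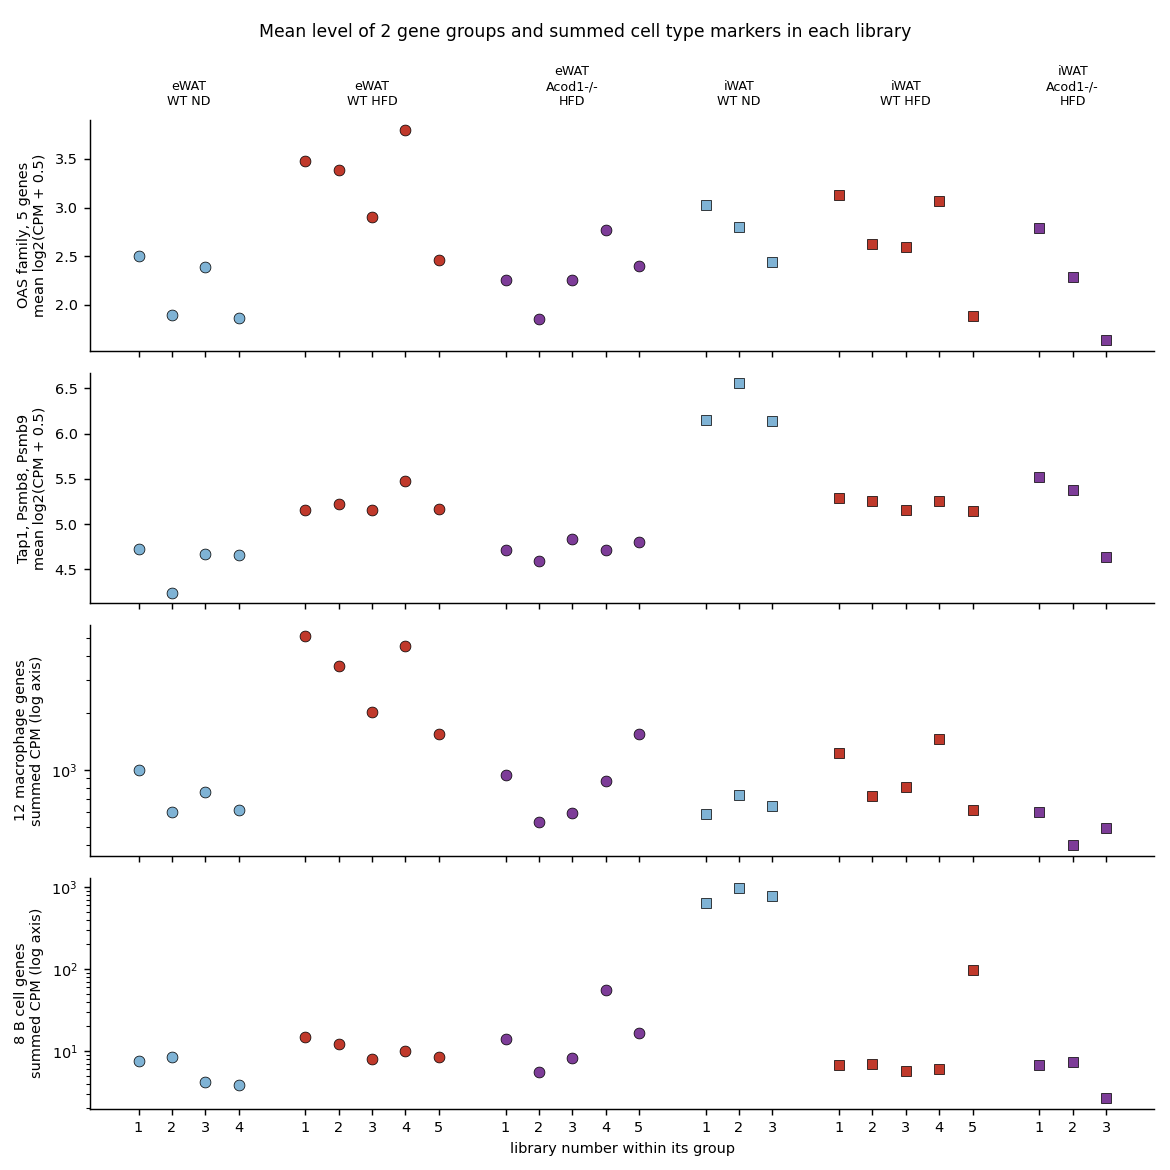
Per library, from top to bottom: mean log2(CPM + 0.5) of the 5 OAS family genes and of the 3 antigen processing genes, and summed CPM (log axes) of 12 macrophage and 8 B cell marker genes. HFD-fed WT eWAT libraries 1 to 4 are the highest of the depot in the OAS and macrophage panels, while library 5 overlaps the other groups, and the 3 ND-fed iWAT libraries stand apart in the antigen processing and B cell panels, the latter at 646 to 963 CPM.

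In iWAT on the HFD, no member was called between Acod1-/- and WT mice in either direction by edgeR, and none by DESeq2, where the share of all genes called was 0.0% in both directions. With an unadjusted p under 0.05 there were 4 members, all lower in Acod1-/- mice, and 2468 of the 14801 genes tested. The median log2 fold change was -0.27 over the members and -0.015 over all genes, and 37 of the 46 were negative. The median was -1.06 over the 12 macrophage genes, 10 of which had an unadjusted p under 0.05. It was -1.87 over the 10 T cell genes and -1.96 over the 8 B cell genes, where WT library 5 stood apart. The T cell genes summed to 141 CPM in that library, 12.4 to 27.5 CPM in the other WT libraries and 4.79 to 16.1 CPM in Acod1-/- mice. The B cell genes summed to 96.9 CPM, 5.70 to 6.97 CPM and 2.68 to 7.44 CPM in the same order. None of these markers was called, and their part in the shift of the members was not tested. The 3 members with the smallest p were Trim30a, at 25.4, 20.8 and 16.3 CPM in Acod1-/- mice (log2 fold change -0.57, SE 0.21, adjusted p = 0.212), Rsad2 at 19.6, 16.7 and 10.2 CPM (log2 fold change -0.90, SE 0.37, adjusted p = 0.255) and Parp14 at 39.9, 35.3 and 43.5 CPM against 51.6, 48.7, 45.7, 51.3 and 40.8 CPM in WT mice (log2 fold change -0.29, SE 0.13, adjusted p = 0.288). None of these 3 passed the test. Within the first sequencing series alone (4 WT and 2 Acod1-/- libraries), 2 members, Parp14 and Rsad2, were called lower.

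The members called by genotype in eWAT spread widely in the 3 Acod1-/- iWAT libraries. Oas1a was at 8.51, 3.93 and 3.02 CPM (log2 fold change -0.50, SE 0.36, adjusted p = 0.512) and Oasl2 at 19.5, 18.8 and 9.19 CPM (log2 fold change -0.37, SE 0.30, adjusted p = 0.573). Psmb8 was at 81.6, 68.4 and 35.9 CPM, so that the WT range lay inside the Acod1-/- range (log2 fold change 0.016, SE 0.21, adjusted p = 0.983). Psmb9 at 35.3, 30.5 and 16.5 CPM (log2 fold change 0.044, SE 0.20, adjusted p = 0.943) likewise surrounded the WT values, and Tap1 was at 32.5, 32.96 and 24.3 CPM (log2 fold change -0.11, SE 0.11, adjusted p = 0.667). For Oas1a, Oasl2, Psmb8 and Psmb9, Acod1-/- library 1 was the highest of the 3 and library 3 the lowest. Ifit3 at 45.8, 24.9 and 25.6 CPM (log2 fold change -0.29, SE 0.22, adjusted p = 0.548), Ifit3b at 11.8, 9.66 and 8.27 CPM (log2 fold change -0.30, SE 0.21, adjusted p = 0.502) and Ifit1 at 19.2, 12.95 and 8.90 CPM (log2 fold change -0.18, SE 0.33, adjusted p = 0.837) overlapped the WT libraries. Isg15 was at 8.61, 11.9 and 5.25 CPM (log2 fold change -0.17, SE 0.29, adjusted p = 0.824).

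The transcription factors were likewise not called. Irf7 was at 31.9, 25.6 and 20.7 CPM in Acod1-/- iWAT (log2 fold change -0.044, SE 0.22, adjusted p = 0.947), Irf9 at 18.1, 24.7 and 14.6 CPM (log2 fold change -0.27, SE 0.18, adjusted p = 0.479) and Stat2 at 28.9, 24.3 and 22.5 CPM (log2 fold change -0.37, SE 0.18, adjusted p = 0.323). Of the effectors, Bst2 was at 69.4, 71.1 and 34.7 CPM (log2 fold change 0.0077, SE 0.22, adjusted p = 0.993), Ly6e at 277, 375 and 282 CPM (log2 fold change -0.20, SE 0.15, adjusted p = 0.535), Ifi27 at 416, 593 and 563 CPM (log2 fold change 0.025, SE 0.17, adjusted p = 0.965) and Mx1 at 1.06, 3.26 and 1.26 CPM (log2 fold change -0.89, SE 0.48, adjusted p = 0.377). Mx1 had 2 Acod1-/- libraries below all WT libraries and the third within their range. Gbp2 at 63.2, 66.3 and 78.2 CPM (log2 fold change -0.19, SE 0.14, adjusted p = 0.538) and Iigp1 at 33.7, 31.98 and 21.6 CPM (log2 fold change -0.55, SE 0.29, adjusted p = 0.365) overlapped the WT libraries. Across the diet and genotype comparisons of both depots, edgeR called 13 of the 46 members in none. They were the sensor gene Ddx58, Ifit2, Oas2, the GTPase genes Gbp3, Gbp7 and Iigp1, Isg15, Dtx3l, and the effectors Cmpk2, Ifi27, Ifi44, Xaf1 and Mx2, which the annotation lists as a polymorphic pseudogene. Under other settings or with a library left out, Gbp3, Gbp7, Ddx58, Ifit2, Oas2, Isg15, Dtx3l and Cmpk2 were each called in at least 1 of these comparisons. The edgeR log2 fold changes ran from -0.48 (Oas2) to 0.51 (Isg15) with diet in eWAT and from -0.55 (Iigp1) to 0.055 (Dtx3l) with genotype in iWAT.

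Whether diet acted differently in the 2 depots was tested as an interaction in a fit of all 25 libraries. For 14 members (30.4%) the change with the HFD was higher in eWAT than in iWAT and for 1 (2.2%) it was lower, where 14.0% and 15% of all genes tested were called in these directions. The median difference was 0.41 over the members and -0.040 over all genes (log2). The 14 included 3 of the 5 OAS genes and all 3 antigen processing genes. Psmb8 rose in eWAT and fell in iWAT, with log2 fold changes of 1.19 and -0.77 and a difference of 1.99 (SE 0.26, adjusted p = 1.87e-05). For Tap1, not called in eWAT and lower on the HFD in iWAT, the difference was 1.57 (SE 0.17, adjusted p = 3.02e-06). Mx1 and Zbp1, each higher on the HFD in eWAT and lower in iWAT, differed by 3.05 and 2.81 (adjusted p = 0.00178 and 0.000196). Of the 19 members called higher on the HFD in eWAT, 4 were called higher and 7 lower in iWAT, which is 4 of the 7 higher and 7 of the 17 lower there. The response of Ifit3 differed by 0.0054 between the depots (SE 0.32, adjusted p = 0.998). The 1 member in the other direction, Isg20, differed by -1.48 (adjusted p = 0.0662) and was not called without eWAT ND-fed library 2, eWAT WT library 1 or iWAT ND-fed library 2 or 3. The ND-fed iWAT libraries with their lymphoid RNA enter each of these differences. All 8 B cell, all 10 T cell and 4 of 12 macrophage genes were called in the direction of the 14 members.

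**Figure D4:**
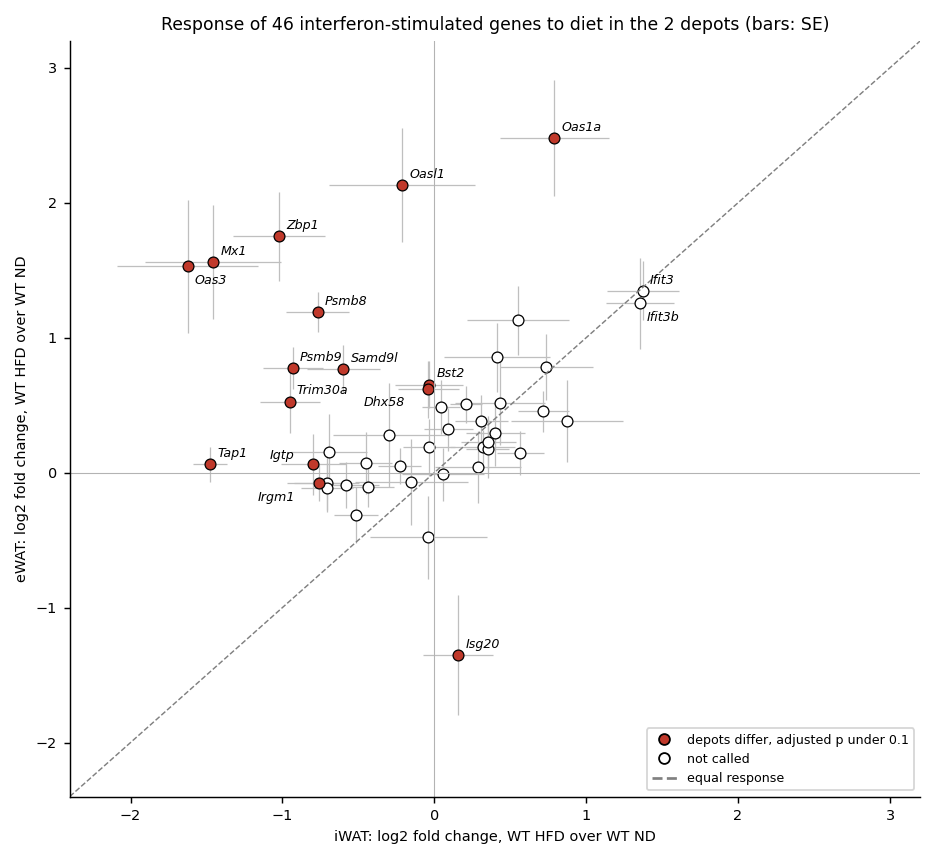
Log2 fold change with the HFD in WT mice in iWAT (horizontal) and eWAT (vertical) for the 46 genes, with SE as bars; red points differ between the depots at an adjusted p under 0.1, and the dashed line marks an equal response. Ifit3 and Ifit3b lie near the line at about the same increase in both depots, and Oas3, Mx1, Zbp1 and Psmb8 lie where the plot shows an increase in eWAT and a decrease in iWAT.

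On the ND itself, 23 members (50%) were lower in eWAT than in iWAT and 1 (2.2%), Isg20, was higher, where 14.2% of all genes were lower and 17.5% higher. Tap1, Psmb8 and Psmb9 were 3.19-, 3.55- and 3.25-fold lower in eWAT (adjusted p = 8.04e-08, 1.72e-06 and 3.91e-06), Zbp1 was 5.53-fold and Mx1 6.37-fold lower (adjusted p = 3.96e-05 and 0.000517), and Irf7 was lower with a log2 difference of -1.15 (adjusted p = 0.00121). Without iWAT ND-fed library 2, the count of lower members was 15. The B cell genes summed to 3.88 to 8.55 CPM in the eWAT and 646 to 963 CPM in the iWAT libraries of this comparison, so that depot and lymphoid RNA cannot be told apart in it. In HFD-fed WT mice 1 member (Oas1a) was higher in eWAT and 4 (Cmpk2, Ly6e, Gbp3 and Iigp1) were lower, where 10.8% of all genes were higher and 7.75% lower. Of the markers, 10 of 12 macrophage genes were higher and all 8 endothelial genes lower in eWAT. Their part in these calls was not tested. The Oas1a call was lost without eWAT WT library 1, 2 or 4, any iWAT ND-fed library or iWAT WT library 1, 2, 3 or 5. No member was called lower there without eWAT WT library 1 or iWAT WT library 2, and 1 or 2 were without eWAT ND-fed library 4, eWAT WT library 2, 3 or 5, eWAT Acod1-/- library 1, 3, 4 or 5, iWAT WT library 1, 3 or 4 or iWAT Acod1-/- library 1. In Acod1-/- mice 1 member, Psmb8, was lower in eWAT (log2 difference -0.63, adjusted p = 0.09), where 2.01% of all genes were higher and 1.8% lower. Psmb8 was no longer called there without eWAT ND-fed library 3 or 4, eWAT WT library 2, eWAT Acod1-/- library 1, 2, 3 or 4, any iWAT HFD-fed WT library or iWAT Acod1-/- library 1 or 2, and 4 members were called lower without iWAT Acod1-/- library 3. The change with genotype differed between the depots for no member in edgeR or DESeq2, where 0.0% of all genes were higher and 0.00665% lower. With an unadjusted p under 0.05 there were 3 members, Psmb8, Psmb9 and Oas1a, all lower, and 1524 of the 15034 genes tested (662 higher, 862 lower). The difference for Psmb8 was -0.79 (SE 0.25, adjusted p = 0.332). Without iWAT Acod1-/- library 3, 2 members were called lower in this test.

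The rest of the pathway was read from gene lists. Their counts stand against 24.8% of all genes called higher and 26.9% lower with diet in eWAT, 9.13% and 10.8% with genotype in eWAT, and 25.9% and 24.2% with diet in iWAT. Of 5 interferon receptor genes tested in eWAT, the HFD raised 4 and lowered 1. The type I receptor chain Ifnar1 was at 34.4 to 42.2 CPM on the ND and 39 to 72.6 CPM on the HFD (log2 fold change 0.47, SE 0.18, adjusted p = 0.0437), a call lost without ND-fed library 3 or HFD-fed library 1 or 2 (adjusted p = 0.106 to 0.11). Ifnar2, its partner, was at 27.9 to 40.2 CPM on the ND, 50.6 to 61.6 CPM on the HFD (log2 fold change 0.65, SE 0.14, adjusted p = 0.00265) and 34.8 to 53.1 CPM in Acod1-/- mice (log2 fold change -0.46, SE 0.13, adjusted p = 0.0358). The chains of the interferon gamma receptor moved in opposite directions in eWAT: Ifngr2 was at 17.4 to 27.7 CPM on the ND and 35.2 to 62.4 CPM on the HFD (log2 fold change 1.08, SE 0.21, adjusted p = 0.00163), while Ifngr1, the ligand-binding chain, was at 331 to 482 CPM and 208 to 243 CPM (log2 fold change -0.85, SE 0.13, adjusted p = 0.00052). With genotype 0 of the 5 receptor genes were higher and 3 were lower, among them Ifngr2 (log2 fold change -0.73, SE 0.19, adjusted p = 0.0286), and Ifnar1 was not called (log2 fold change -0.37, SE 0.17, adjusted p = 0.15). In iWAT the HFD raised 1 and lowered 1 of the 5.

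Of 11 signal transducers and other STAT and IRF factors in eWAT, 4 were higher and 4 lower on the HFD and 0 higher and 2 lower in Acod1-/- mice, and in iWAT 0 were higher and 9 lower on the HFD. Irf1, an early target of interferon gamma signalling, was not called in eWAT on the HFD (log2 fold change -0.16, SE 0.15, adjusted p = 0.386) and was lower in iWAT (log2 fold change -0.70, SE 0.15, adjusted p = 0.00333). Irf8, a factor of macrophages, dendritic cells and B cells, was at 18.4, 12.6, 10.9 and 10.5 CPM in ND-fed WT, 77.6, 61.8, 40.8, 67.3 and 43.5 CPM in HFD-fed WT and 15.7, 17.5, 12.2, 13.6 and 38.8 CPM in Acod1-/- eWAT. The HFD-fed WT libraries lay above all others of the depot (log2 fold change 2.15, SE 0.34, adjusted p = 0.000648 for diet, and log2 fold change -1.57, SE 0.31, adjusted p = 0.0118 for genotype). In iWAT Irf8 was at 76.8, 113 and 78.7 CPM on the ND, 28.1, 25.3, 22.3, 33.2 and 23.2 CPM on the HFD and 13.02, 10.6 and 14.96 CPM in Acod1-/- mice, lower with the HFD (log2 fold change -1.73, SE 0.17, adjusted p = 9.43e-05) and not called by genotype (log2 fold change -1.06, SE 0.19, adjusted p = 0.133).

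Upstream, 9 of 11 sensors and adaptors were higher and 1 lower on the HFD in eWAT, and 1 was higher and 6 lower in Acod1-/- mice. Unc93b1, the chaperone that delivers nucleic acid-sensing Toll-like receptors to endosomes, was at 46.1 to 71.8 CPM on the ND, 104 to 257 CPM on the HFD and 46.9 to 87.9 CPM in Acod1-/- mice (log2 fold change 1.56, SE 0.26, adjusted p = 0.000855 for diet, and log2 fold change -1.41, SE 0.24, adjusted p = 0.011 for genotype). Of 12 such genes in iWAT, 2 were higher and 6 lower on the HFD. MHC class I presentation outside the member list was called in the same directions as Psmb8 in eWAT, with 11 of 17 genes higher and 0 lower on the HFD and 0 higher and 10 lower in Acod1-/- mice. B2m, the light chain of every class I molecule, rose with the HFD in eWAT (log2 fold change 1.03, SE 0.14, adjusted p = 0.000282), and the third immunoproteasome subunit gene Psmb10 did too (log2 fold change 1.35, SE 0.16, adjusted p = 0.000179). In Acod1-/- eWAT the class I heavy chain gene H2-K1 was lower (log2 fold change -0.80, SE 0.16, adjusted p = 0.0128). In iWAT 4 of the 17 were higher and 9 lower on the HFD, among the lower ones Nlrc5, the class I transactivator (log2 fold change -0.99, SE 0.13, adjusted p = 0.000301), and the second transporter subunit Tap2 (log2 fold change -0.69, SE 0.11, adjusted p = 0.000638). Of 9 inhibitors of interferon signalling, 2 were higher and 2 lower on the HFD in eWAT, 0 higher and 3 lower in Acod1-/- eWAT, and 0 higher and 7 lower on the HFD in iWAT. None of the listed genes was called by genotype in iWAT.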

How the data were processed

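RNA-seq libraries of mouse eWAT and iWAT (NEBNext directional mRNA libraries, 1 per mouse and depot) were sequenced by the authors, who trimmed the reads with cutadapt (reads under 18 bases discarded), filtered contaminants and mapped what was left to GRCm38 using STAR. The program that counted reads per gene and its use of strand are not given in the sources used here. The deposited tables hold raw read counts per gene and FPKM that the authors computed from them. The FPKM followed from counts and cDNA length to within 0.0005 and were not tested. Gene symbols were joined here from GENCODE vM21, which gave none for 29 of the 54752 genes. The 5 uncounted classes were left out (no feature 6.41% to 11.88% of reads, ambiguous 1.52% to 2.07%). No 2 libraries matched within sampling noise.

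Counts were tested with edgeR 4.0.16 in R 4.3.3 (limma 3.58.1), by the quasi-likelihood F-test with TMM factors, within each depot for diet and genotype and over all 25 libraries for depots and interactions. A gene entered a fit if its mean reached 1 CPM. Benjamini-Hochberg adjustment covered all genes in the fit, and calls were made below 0.1, the threshold used in the study. Within a depot each library is 1 mouse, so the p-values for diet and genotype measure the spread between mice. The labels do not say whether same-numbered libraries of the 2 depots are from the same mouse. The depot and interaction tests treated all 25 libraries as independent, so their p-values may not measure that spread. CPM values use TMM-scaled library sizes. Code was tested on simulated counts. Tables and plots were made with Python 3.11.15 (numpy 2.4.6, pandas 2.3.3, matplotlib 3.10.9).

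The 46 members, the gene lists and the tests were chosen with earlier results of these data known. Values in every library are given for 16 fixed members and, per diet or genotype comparison, for called members with a mean of at least 5 CPM: the 3 with the smallest adjusted p in each direction and the 2 with the largest change, or, where none was called, the 3 with the smallest p. Outside the members, Irf1, Irf8, Acod1, Ifng and 4 receptor genes are given, and up to 3 called genes per pathway list; 1 further gene of this rule is not reported here. The library values of Oasl1, Trim25 and, in some comparisons, Psmb9, Tap1, Rtp4, Zbp1 and Parp9 were added after they were seen. Of 151 pathway genes listed, 149 were matched by symbol. Alternatives were a stricter threshold, no filter or 1 CPM in every library, DESeq2 (1.42.0) size factors and test, only the groups compared, a replicate block, and each library left out; the sequencing series and pairs of libraries with other tissue were added after seeing the data.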

Additional observations from a re-analysis of the deposited data

Results flagged for a closer look

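Single libraries stood far from the rest of their group in 8 of 100 groups of 4 or 5 libraries examined among the named members, where chance gives about 1 in 20. In ND-fed WT eWAT, library 2, which carried epididymis transcripts, was high for Isg20 (72.1 CPM, others 14.0 to 17.0) and low for Psmb9 (11.4 CPM, others 16.8 to 17.5) and Tap1 (23.3 CPM, others 29.9 to 30.1). In HFD-fed WT eWAT, library 4 was high for Irf7 (29.5 CPM, others 13.9 to 18.4) and Psmb8 (89.6 CPM, others 57.8 to 64.2). In Acod1-/- eWAT, library 2 was high for Ifi27 (801 CPM, others 451 to 480) and low for Rtp4 (6.03 CPM, others 9.33 to 9.84). In HFD-fed WT iWAT, library 1 was high for Psmb9 (28.8 CPM, others 24.6 to 25.7).

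The change with the HFD differed between eWAT and iWAT for 15 members by the test of the interaction (edgeR, adjusted p under 0.1). The log2 difference, eWAT minus iWAT, was 1.57 for Tap1 (adjusted p = 3.02e-06), 1.99 for Psmb8 (1.87e-05) and 1.74 for Psmb9 (7.65e-05). It was 2.81 for Zbp1 (0.000196), 3.05 for Mx1 (0.00178), 1.40 for Samd9l (0.00245) and 1.51 for Trim30a (0.0025). In the OAS family it was 3.18 for Oas3 (0.00248), 2.37 for Oasl1 (0.0113) and 1.72 for Oas1a (0.0333). Smaller differences were called for Irgm1 (0.72, 0.044), Igtp (0.89, 0.0553), Bst2 (0.72, 0.0827) and Dhx58 (0.69, 0.0925), and Isg20 was the member in the other direction (-1.48, 0.0662). The ND-fed iWAT libraries differ from all others in lymphoid RNA, and diet and that RNA cannot be told apart in iWAT.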

How the results depend on the processing

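Counts of members called are given as higher and lower. The shares of all genes called under each setting, or without a library, are not reported here. Changes in these counts therefore cannot be set against changes over all genes. DESeq2 called 0 lower with diet in eWAT and 2 higher between depots in HFD-fed WT mice. At an adjusted p under 0.05, 5 were lower with genotype in eWAT, 4 higher with diet in iWAT, 0 higher and 1 lower between depots in HFD-fed WT mice, 0 lower between depots in Acod1-/- mice and 0 lower for diet by depot. Without the filter, the depots differed in 0 higher and 1 lower members in HFD-fed WT mice and 0 lower in Acod1-/- mice. With the sequencing series as a term, eWAT diet gave 10 higher and 2 lower, the iWAT diet median was -0.45, the iWAT diet log2 fold changes of Oasl2 and Rsad2 turned to -0.041 (adjusted p = 0.92) and -0.19 (adjusted p = 0.682), and the depots gave 2 higher in HFD-fed WT and 2 lower in Acod1-/- mice. In eWAT, genotype gave 1 higher (Isg20) with only the groups compared, in the first series alone, or without ND-fed library 2 and Acod1-/- library 5. In iWAT it gave 2 lower in the first series alone. The causes were not tested.

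Leaving out 1 library at a time gave, for eWAT diet, 17 to 22 higher and 0 to 1 lower. For eWAT genotype it gave 0 to 1 higher and 3 to 12 lower, for iWAT diet 4 to 10 higher and 12 to 18 lower, and for iWAT genotype 0 and 0 throughout. Between depots it gave 15 to 24 lower on the ND, 0 to 2 higher and 0 to 6 lower in HFD-fed WT mice, and 0 to 1 higher and 0 to 4 lower in Acod1-/- mice. Diet by depot gave 10 to 17 higher and 0 to 1 lower, and genotype by depot 0 to 2 lower.

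Replicate numbers are shared between groups, but the deviations of same-numbered libraries did not correlate above 0.1 in every pair of any comparison (for example -0.171 to 0.158 for eWAT diet and -0.05 to 0.489 between depots in HFD-fed WT mice). With a replicate block, eWAT diet gave 18 higher, eWAT genotype 8 lower and iWAT diet 7 higher and 12 lower. With the block the depots gave 2 higher in HFD-fed WT and 0 lower in Acod1-/- mice, and genotype by depot gave 1 lower (Oas1a). Over the libraries with both depots and no replicate block they gave 2 and 0 lower.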

Other observations

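Among 73 other interferon-induced genes outside the member list, 70 were tested in eWAT. With the HFD 34 were higher and 10 lower, where 24.8% of all genes were higher and 26.9% lower, and in Acod1-/- mice 1 was higher and 15 were lower, where 9.13% and 10.8% of all genes were. Ifi30, a lysosomal thiol reductase of antigen-presenting cells, was higher with the HFD (log2 fold change 2.46) and lower in Acod1-/- eWAT (-1.83), by edgeR in the same fit as the members. Epsti1 and Slfn2 were lower in Acod1-/- eWAT (log2 fold changes -1.19 and -1.85). In iWAT 14 of 69 were higher and 35 lower with the HFD (25.9% and 24.2% of all genes), among the lower ones Ms4a4c (log2 fold change -4.40), Aim2 (-2.42), a sensor of cytosolic DNA, and Shisa5 (-1.42). These lists hold genes of macrophages and lymphocytes, whose markers moved in the same comparisons, and their part in these counts was not tested.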
